A study of Rattus norvegicus with 10 samples.

Results

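The probes rno-miR-185, rno-miR-191 and rno-miR-361 were followed here across the 4 treatment groups of a microRNA survey of the rat dorsal vagal complex, the hindbrain region that holds the motor neurons of the vagus. The members are the rows of the count file with these names, an arm suffix (5p or *) being allowed, and 3 of the 420 microRNA probes matched, none of them with a suffix. They were selected on an earlier reading of the same counts, in which each was higher after preconditioning plus ligation than after ligation alone, and miR-185 and miR-191 also against the controls. Their differences in those comparisons are therefore described and not tested. Punched tissue of 10 male Sprague-Dawley rats gave 1 sample each, and was assayed with the NanoString nCounter platform, which counts ligated microRNAs by fluorescent barcodes. The groups were age-matched control (AMC, n = 3), remote ischemic preconditioning by occlusion of the hindlimb vessels (RIPC, n = 2), coronary ligation through a left thoracotomy (LAD, for the left anterior descending artery, n = 3), and RIPC with the ligation 2 h later (RIPC+LAD, n = 2). Tissue of LAD and RIPC+LAD animals was taken 24 h after ligation, and that of RIPC animals, by the methods, at the matching time after preconditioning. The labels give no age and name no sham group, so anesthesia and surgery cannot be told apart from ischemia. A punch holds many cell types, and fewer cells of a type cannot be told apart from less microRNA per cell.

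MicroRNAs are short RNAs that guide Argonaute proteins to messenger RNAs through a seed, bases 2 to 8 from the 5′ end, and usually lower the output of the bound messenger. Most are made from longer transcripts, and many lie inside protein-coding genes. The members lie in 3 such genes and are found in most tissues, with no known restriction to neurons. The gene of miR-185 lies in the region deleted in human DiGeorge syndrome, and in mouse models of that deletion its loss has been tied to changes in dendrites and synapses. MiR-191 is made together with miR-425 and is often used as a reference for scaling microRNA assays because of its broad expression. MiR-361 comes from Chm, the gene of the Rab escort protein that is lost in human choroideremia, and has been described as a regulator of vascular endothelial growth factor in human cells.

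The mature sequences of the members and of miR-425, the cluster partner used below as a reference, are shown to identify the members and to compare their seeds. They are from RefSeq (assembly GRCr8), run 5′ to 3′, and carry the seed in capitals. The probe names give no arm, and each was matched by name to the 5′ arm of its gene. The sequences of the probes themselves were not analysed here, so these need not be the exact targets that the probes detect.
miR-185: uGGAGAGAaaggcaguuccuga
miR-191: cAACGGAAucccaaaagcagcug
miR-361: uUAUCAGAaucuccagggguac
miR-425: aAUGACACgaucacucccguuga

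Mir185 lies within Tango2 on the plus strand of chromosome 11 (chr11:96169028-96169107), Mir191 within Dalrd3 on the plus strand of chromosome 8 (chr8:118142627-118142717), and Mir361 within Chm on the minus strand of the X chromosome (chrX:82438463-82438532). Mir425 lies in the same gene and on the same strand as Mir191, with 366 bases between both hairpins. None of the 3 member seeds occurs in another of the 724 mature rat microRNAs of the RefSeq table. The seeds also differ from each other, with 3 of 7 positions alike between miR-185 and miR-361 and 2 of 7 between miR-191 and either of the others. The GC content is 50.0% for miR-185, 52.2% for miR-191 and 45.5% for miR-361, where the median over the table is 47.6%. The members thus share neither a chromosome, nor a host gene, nor a seed. A further hairpin, Mir3555, is annotated on the strand opposite Mir191, and its probe had 2 to 7 counts per sample, so it was near background.

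The libraries differed in depth and in their controls. Total microRNA counts ran from 90348 to 102824 in AMC, 73293 to 90086 in RIPC, 28485 to 102329 in LAD and 80696 to 93246 in RIPC+LAD, with LAD 2 and LAD 3 the shallowest. Counts of POS_A, the most abundant spike-in, formed a high set of 11724 to 14579 (all AMC samples, RIPC 2 and LAD 1) and a low set of 6725 to 8670 (both RIPC+LAD samples, RIPC 1 and the shallow LAD libraries). The ligation control LIG_POS_A, a spiked RNA that must be ligated before it is counted, was at 38.9% to 85.6% of POS_A in AMC, 38.4% to 79.2% in RIPC, 24.3% to 54.4% in LAD and 111% to 172% in RIPC+LAD. By the prefix of the animal number, which occurs in no more than 1 group each, the RIPC+LAD animals belong together, and so do LAD 2 with LAD 3 and AMC 2 with AMC 3, so prefix and treatment cannot be told apart. Of 420 microRNA probes 253 were detected, which means that in at least 2 samples they exceeded the negative controls by their mean and 2 SD. The 3 members were above that limit in all 10 samples. Neuronal markers were plentiful, with 7 of 7 listed microRNAs (miR-124, miR-9, miR-128, miR-137, miR-218a, miR-129 and miR-138) detected and a summed level of 106630 to 161240 CPM (counts at a common library size, set by the trimmed mean of M values) over all samples.

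rno-miR-185 was counted 123, 106 and 191 times in AMC 1 to 3, 136 and 79 times in RIPC 1 and 2, 95, 59 and 31 times in LAD 1 to 3, and 187 and 236 times in RIPC+LAD 1 and 2. Scaled for depth, these counts were 1267, 1087 and 2063 CPM in AMC, 1661 and 901 CPM in RIPC, 957, 1286 and 1077 CPM in LAD, and 2510 and 2737 CPM in RIPC+LAD. Both RIPC+LAD samples lay above all others, AMC 3 came next, and the other 3 groups overlapped. On the log2 CPM scale AMC averaged 10.49 ± 0.48 (SD, n = 3), RIPC averaged 10.29 ± 0.61 (n = 2), while LAD was at 10.13 ± 0.21 (n = 3) and RIPC+LAD 11.37 ± 0.09 (n = 2). The order was RIPC+LAD, AMC, RIPC and LAD, and neighbours among the lower 3 groups differed by less than the pooled SD within groups, which was 0.39.

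rno-miR-191 was counted 238, 153 and 255 times in AMC, 211 and 143 times in RIPC, 181, 83 and 66 times in LAD, and 288 and 337 times in RIPC+LAD. This came to 2451, 1568 and 2754 CPM in AMC, 2578 and 1631 CPM in RIPC, 1823, 1810 and 2292 CPM in LAD, and 3866 and 3909 CPM in RIPC+LAD. The pair of RIPC+LAD samples was again the highest and nearly level, and the lowest sample was a control, AMC 2. In log2 CPM, AMC averaged 11.12 ± 0.42 (SD, n = 3), RIPC averaged 11.02 ± 0.46 (n = 2), while LAD was at 10.96 ± 0.19 (n = 3) and RIPC+LAD 11.93 ± 0.011 (n = 2). AMC, RIPC and LAD followed each other by less than the pooled SD of 0.33.

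rno-miR-361 was the scarcest member, with 28, 48 and 30 counts in AMC, 36 and 26 in RIPC, 30, 13 and 6 in LAD, and 39 and 47 in RIPC+LAD. The 6 counts of LAD 3 were just above the limit of 5.91 set by its negative controls. Its scaled levels were 288, 492 and 324 CPM in AMC, 440 and 297 CPM in RIPC, 302, 283 and 208 CPM in LAD, and 524 and 545 CPM in RIPC+LAD. The RIPC+LAD samples were the highest here as well, but only just above AMC 2. In log2 CPM, AMC averaged 8.59 ± 0.38 (SD, n = 3), RIPC averaged 8.60 ± 0.38 (n = 2), while LAD was at 8.16 ± 0.26 (n = 3) and RIPC+LAD 9.13 ± 0.039 (n = 2). AMC and RIPC were level, and although the LAD mean lay lower by more than the pooled SD of 0.31, LAD 1 was above AMC 1 and RIPC 2.

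**Figure D1:**
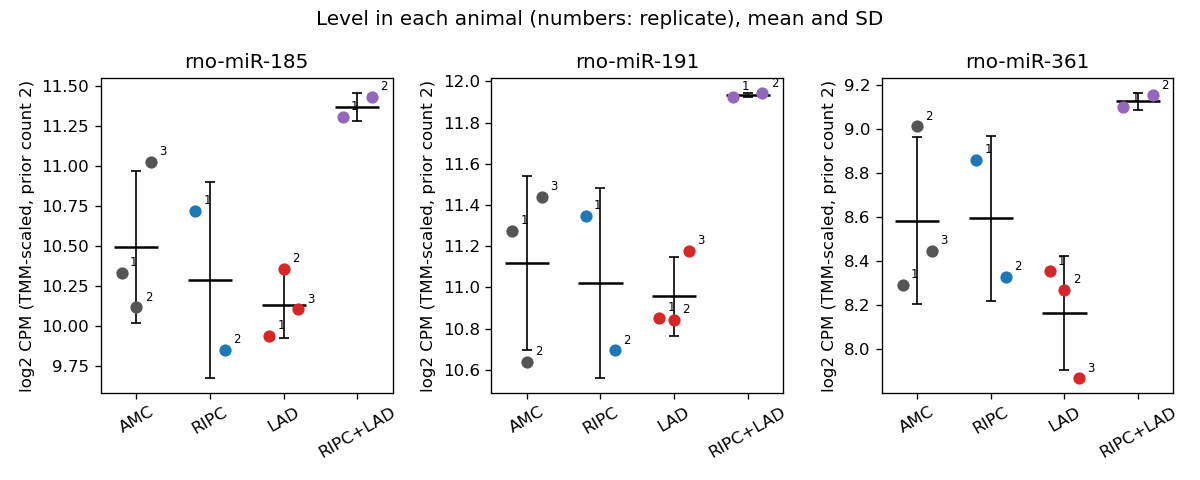
Log2 CPM of miR-185, miR-191 and miR-361 in each of the 10 animals by group, with points numbered by replicate and bars for the mean and SD (n = 3 for AMC and LAD, n = 2 for RIPC and RIPC+LAD). Both RIPC+LAD samples were the highest of 10 for each member, by 0.28 for miR-185, 0.49 for miR-191 and 0.09 for miR-361 over the next sample.

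Counting error alone is large for miR-361. Per 100000 microRNA counts, its share was 21.1 in LAD 3 with an exact (Clopper-Pearson) 95% interval of 7.73 to 45.8, and 50.4 (37.0 to 67.0) in RIPC+LAD 2. For miR-185 the same samples had 109 (74.0 to 154) and 253 (222 to 287), and for miR-191 they had 232 (179 to 295) and 361 (324 to 402). The intervals of LAD 3 and RIPC+LAD 2 did not overlap for miR-185 and miR-191 and overlapped for miR-361. These intervals cover counting error only. Both samples come from the groups whose difference chose the members, which favours intervals that lie apart. How many other microRNAs had intervals apart in this pair was not counted.

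LAD was compared with AMC to ask what the ligation alone does to the members. All 3 were lower in LAD, and none passed the test. In edgeR's quasi-likelihood test the log2 fold change was -0.42 ± 0.32 (SE) for miR-185, -0.20 ± 0.29 for miR-191 and -0.43 ± 0.33 for miR-361, with adjusted p-values of 0.967, 0.995 and 0.967. The 95% intervals ran from -1.11 to 0.27, from -0.82 to 0.42 and from -1.13 to 0.28. Over all microRNAs edgeR called 0 of 253 (0%) at an adjusted p under 0.05, and 14 had an unadjusted p under 0.05 in edgeR, 4 in DESeq2 and 13 in limma-voom. This comparison uses the same 3 LAD animals as the one that chose the members, and the AMC animals entered the choice of miR-185 and miR-191. A choice on RIPC+LAD above LAD favours low LAD values, so the direction seen here is not independent of it. Without AMC 3, the control with the highest miR-185, the values of miR-185 and miR-191 were -0.10 and -0.03. Without AMC 2, the lowest control for both and the highest for miR-361, they were -0.59 and -0.41 and miR-361 was at -0.16, and without LAD 3, with its 6 counts, miR-361 was at -0.27. In the high spike-in samples alone, in which LAD 1 met the controls, the members were at -0.55, -0.25 and -0.22.

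RIPC was compared with AMC to ask what preconditioning alone does. Its samples are not those of the comparison of RIPC+LAD with LAD, though the AMC animals also entered that of RIPC+LAD with AMC. None of the members differed by more than the spread between animals. The log2 fold change in edgeR was -0.20 ± 0.36 (SE) for miR-185, -0.10 ± 0.32 for miR-191 and -0.004 ± 0.34 for miR-361, each with an adjusted p of 0.997. Their 95% intervals were -0.95 to 0.55, -0.79 to 0.58 and -0.73 to 0.72. The call count over all microRNAs was 0 of 253 (0%) in edgeR, with 3 at an unadjusted p under 0.05, 2 in DESeq2 and 3 in limma-voom. The RIPC animals differed from each other, since RIPC 1 was above RIPC 2 for all 3 members, with 1661 and 901 CPM of miR-185. Without RIPC 2 the differences from AMC were 0.18, 0.19 and 0.25, and without RIPC 1 they were -0.71, -0.47 and -0.31, in the order of the members. Leaving out 1 control turned signs as well, with miR-185 at 0.12 and miR-191 at 0.07 without AMC 3, and miR-361 at 0.22 without AMC 2.

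In the comparison that chose the members, RIPC+LAD was higher than LAD by a log2 fold change of 1.25 ± 0.35 (SE) for miR-185, or 2.38-fold, by 0.98 ± 0.32 for miR-191, or 1.98-fold, and by 0.96 ± 0.36 for miR-361, or 1.95-fold. Every RIPC+LAD sample was above every LAD sample for 3 of 3 members, where 18.6% of the 253 detected microRNAs had this pattern. With each of the 10 samples left out in turn the values stayed between 1.10 and 1.38 for miR-185, 0.89 and 1.00 for miR-191, and 0.76 and 1.04 for miR-361. Within the low spike-in set, where LAD 2 and LAD 3 meet both RIPC+LAD samples, the differences were 1.11 ± 0.30 for miR-185, 0.89 ± 0.29 for miR-191 and 1.04 ± 0.37 for miR-361. Without both of these shallow LAD libraries, so that LAD 1 alone stood for the group, they were 1.34, 0.98 and 0.71.

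Against AMC, RIPC+LAD was at 0.83 ± 0.34 for miR-185, 0.78 ± 0.32 for miR-191 and 0.54 ± 0.33 for miR-361 on the log2 scale. All 3 members were above every AMC sample, as were 17% of detected microRNAs. Against RIPC the values were 1.03 ± 0.39, 0.89 ± 0.35 and 0.54 ± 0.37, again with 3 of 3 members apart, as were 27.3% of detected microRNAs. The last values depended on which RIPC animal was used, at 1.54, 1.25 and 0.85 without RIPC 1 and 0.66, 0.59 and 0.28 without RIPC 2. These 3 comparisons share the RIPC+LAD animals. Both RIPC+LAD samples stood above all 8 other samples for each member, a pattern seen for 23 of 253 microRNAs (9.09%). For miR-361 this depends on the scaling, since on the total-count scale of the authors' table AMC 2 was at 5.61 on the log2 scale, between the RIPC+LAD samples at 5.59 and 5.66, and on that scale 14 of 253 microRNAs had the pattern. Within the low spike-in set, where RIPC 1 is the only RIPC sample, RIPC+LAD against RIPC was at 0.55 for miR-185, 0.48 for miR-191 and 0.17 for miR-361. No AMC sample lies in the low set, and a fit with a term for the spike-in set put RIPC+LAD against AMC at 0.28 ± 0.47 for miR-185, 0.41 ± 0.44 for miR-191 and 0.41 ± 0.50 for miR-361.

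**Figure D2:**
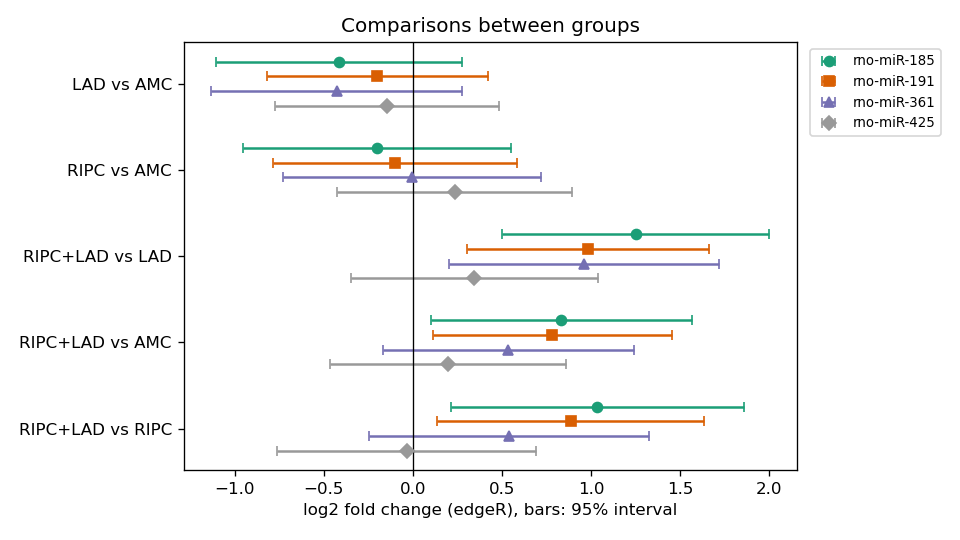
Log2 fold change with 95% interval (edgeR, 10 samples in 1 fit) of the 3 members and of miR-425 in 5 comparisons between groups. The members lie near or below 0 in LAD vs AMC and RIPC vs AMC and between 0.54 and 1.25 in the comparisons of RIPC+LAD, which chose them or share its animals, while miR-425 lies between -0.15 and 0.34 throughout.

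The ligation control moved with miR-185 over most samples and with miR-191 over the highest ones. LAD 3 had the lowest ligation control, at 24.3%, and the most miR-191 of the LAD samples. LIG_POS_A over POS_A was highest in RIPC+LAD 2 and RIPC+LAD 1, followed by AMC 3 at 85.6%, RIPC 1 at 79.2%, LAD 2 at 54.4%, AMC 1 at 46.7% and AMC 2 at 38.9%. The first 7 of 10 samples stood in this same order for miR-185 and the first 4 for miR-191, and for miR-361 only the first 2 did, with AMC 2 next. That the 4 highest samples were those 4 held for miR-185 and miR-191 and for 4.35% of detected microRNAs, an ordering looked at after the values were seen. Both RIPC+LAD samples are among those 4, and the members were chosen for being high there. The choice thus set part of this match, and the share over all microRNAs is not a like background. With the ratio of ligation to positive controls as a covariate, the difference between RIPC+LAD and LAD was 0.14 ± 0.52 for miR-185, 0.47 ± 0.56 for miR-191 and 0.82 ± 0.63 for miR-361. In the same fit and order, RIPC+LAD against AMC was at 0.10 ± 0.41, 0.45 ± 0.43 and 0.43 ± 0.50, and RIPC+LAD against RIPC at 0.34 ± 0.42, 0.57 ± 0.44 and 0.45 ± 0.50. LAD against AMC was at -0.03 ± 0.31 for miR-185, -0.02 ± 0.33 for miR-191 and -0.39 ± 0.36 for miR-361. The ligation control of RIPC+LAD overlaps that of no other group. The covariate values of all comparisons of RIPC+LAD therefore rest on its slope within groups, and treatment cannot be fully told apart from it. With a term for the spike-in set in place of the ligation control, RIPC+LAD against LAD was at 1.05 ± 0.36, 0.85 ± 0.33 and 0.90 ± 0.40.

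**Figure D3:**
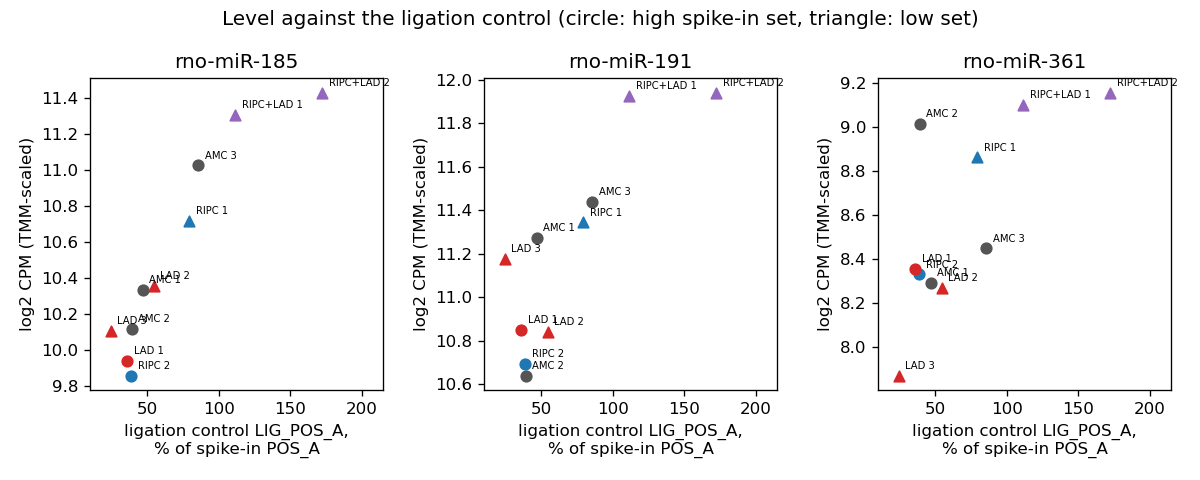
Log2 CPM of each member against the ligation control LIG_POS_A as a percent of the spike-in POS_A in the 10 samples, with circles for the high and triangles for the low spike-in set. Both RIPC+LAD samples (111% and 172%) are at the upper right in each panel, and AMC 3 and RIPC 1 follow for miR-185 and miR-191.

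Ratios of counts within a sample need no scaling, so they were used to ask whether the members moved together. They compare probes of unequal efficiency and are read only between samples. MiR-191 over its cluster partner miR-425, which shares its host gene, was 5.17, 4.5 and 5.31 in AMC, 4.69 and 3.25 in RIPC, 3.93, 4.88 and 6.60 in LAD, and 8.73 and 6.74 in RIPC+LAD. Both RIPC+LAD samples were the highest, but miR-191 was chosen for being high there, and their 95% counting intervals overlapped those of most other samples. That of RIPC+LAD 2 (5.0 to 9.26) overlapped every other sample except RIPC 2, whose interval ended at 4.67. That of RIPC+LAD 1 (6.08 to 12.9) overlapped all 3 controls, whose intervals ended at 6.73 to 7.39. It did not reach those of RIPC 2 and of LAD 1, which ended at 5.56. LAD 3 (3.37 to 14.4) had the widest interval, with only 10 counts of miR-425. MiR-425 itself had 46, 34 and 48 counts in AMC, 45 and 44 in RIPC, 46, 17 and 10 in LAD, and 33 and 50 in RIPC+LAD. Its log2 fold change between RIPC+LAD and LAD was 0.34 ± 0.33, and in log2 CPM RIPC+LAD 1 lay below both RIPC samples.

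Between the members, miR-185 over miR-191 ran from 0.470 in LAD 3 to 0.749 in AMC 3, with 0.649 and 0.700 in RIPC+LAD. The RIPC+LAD values lay inside the range of the controls, which was 0.517 to 0.749. MiR-361 over miR-191 was 0.135 and 0.139 in RIPC+LAD and ran from 0.0909 in LAD 3 to 0.314 in AMC 2. RIPC+LAD was again inside the control range, and AMC 2, high in miR-361 and low in miR-191, stood apart from the others. In both ratios each microRNA was chosen for being high in RIPC+LAD against LAD. That choice favours level ratios there, so they cannot show whether the members moved together.

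**Figure D4:**
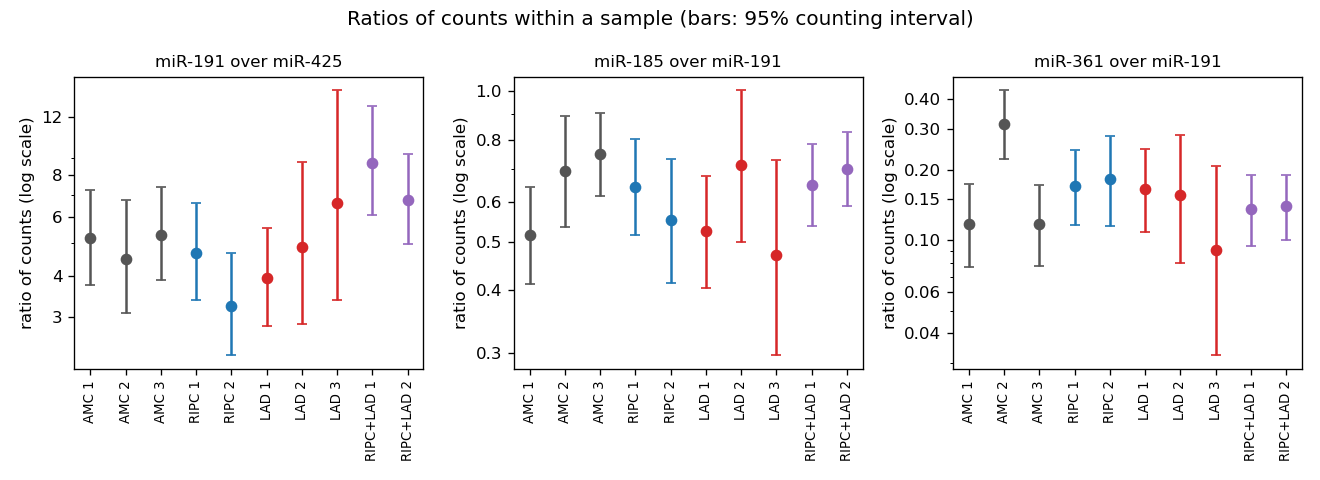
Ratio of counts within each sample, on log axes, for miR-191 over miR-425, miR-185 over miR-191 and miR-361 over miR-191, with exact 95% counting intervals. RIPC+LAD samples are highest for miR-191 over miR-425 (8.73 and 6.74) and lie among the other samples in the other panels.

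Over the 10 samples the log2 levels of miR-185 and miR-191 had a Pearson r of 0.92, and of 0.78 after each group's mean was removed. MiR-361 was less alike, with an r of 0.65 to miR-185 and 0.48 to miR-191, which became 0.06 and -0.36 after removal of the group means. MiR-191 and miR-425 had an r of 0.51 in spite of their shared host gene, with few counts of miR-425 in LAD 2 and LAD 3. These values are descriptions over 10 libraries that also share depth and control differences. The members were chosen for being high in RIPC+LAD against LAD, so the r between them before removal of the group means was partly set in advance.

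Among the 140 other microRNAs above the negative control limit in all 10 samples, those most like miR-185 by Pearson r were miR-151 (0.94), miR-191, miR-23b (0.91), the neuronal miR-129 (0.89) and miR-107 (0.87). Those most like miR-191 were miR-185, miR-151 (0.91), miR-23b (0.88), miR-129 (0.84) and miR-16 (0.83), so 3 names besides the members were common to both. MiR-361 was most like miR-434 (0.91), from the imprinted Dlk1-Dio3 region, miR-125b-5p (0.81), miR-125a-3p (0.78), miR-100 (0.77) and the motor neuron microRNA miR-218a (0.77). None of these 5 was among those of miR-185 or miR-191. These r include the RIPC+LAD and LAD values that chose the members, which favours microRNAs high in RIPC+LAD. After removal of the group means r was 0.75 to 0.88 for the 5 named with miR-185. It was 0.54 to 0.79 for those of miR-191 and 0.38 to 0.79 for those of miR-361.

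MicroRNAs often used as assay references were listed because miR-191 is one of them. Of 10 such probes 8 were detected, miR-24 being at the lowest count of 1 in every sample and miR-320 at 1 to 10 counts. Between RIPC+LAD and LAD 5 of the 8 were higher and 3 lower, and their median on the log2 scale was 0.33 against 0.02 over all detected microRNAs. MiR-16 was at 0.75 ± 0.31, miR-423 at 0.74 ± 0.44 and miR-103 at 0.64 ± 0.35, while let-7a was at -0.12 ± 0.35, miR-93 at -0.42 ± 0.32 and miR-26b at -0.68 ± 0.46. The references thus ran on both sides of 0. Each was below miR-185, miR-191 and miR-361, but these were chosen for being high in this comparison. That order was therefore partly set in advance. In LAD against AMC 2 of the 8 were higher and 6 lower, with a median of -0.10, and in RIPC against AMC 4 were higher and 4 lower, with a median of -0.01. None of the 8 passed the edgeR test in either, where 0 of 253 did.

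Markers of other cells were compared between the groups as well. Oligodendrocyte microRNAs (miR-219-5p, miR-219-2-3p and miR-338, 3 of 3 detected) summed to 10624 to 19090 CPM in RIPC+LAD, 19694 to 48097 CPM in LAD, 14268 to 40418 CPM in AMC and 13878 to 25891 CPM in RIPC. Erythrocyte microRNAs miR-451 and miR-144 summed to 128 to 148 CPM in RIPC+LAD, 171 to 458 CPM in LAD, 154 to 335 CPM in AMC and 232 to 274 CPM in RIPC. The members were highest in the samples where the erythrocyte sum was lowest, though that sum rests on 2 scarce markers and nearly met the AMC range. Between RIPC+LAD and LAD miR-451 was at -0.90 ± 0.48 and miR-144 at -0.91 ± 0.91 on the log2 scale. The oligodendrocyte sums of RIPC+LAD and LAD did not overlap, but only narrowly (up to 19090 and from 19694 CPM), and those of RIPC+LAD overlapped AMC and RIPC.

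Choroid plexus and ciliated cell microRNAs (miR-204, miR-448, miR-449a, miR-449c-3p, miR-34b and miR-34c, 6 of 6 detected) varied most, from 20065 to 22312 CPM in RIPC+LAD, 19884 to 192924 CPM in LAD, 20209 to 59391 CPM in AMC and 21397 to 110313 CPM in RIPC. Neuronal markers summed to 128938 to 141376 CPM in RIPC+LAD, 106630 to 141653 CPM in LAD, 109279 to 161240 CPM in AMC and 125338 to 127391 CPM in RIPC, so these groups overlapped. Between RIPC+LAD and LAD 5 of the 7 neuronal markers were higher and the median of all 7 was 0.52 on the log2 scale, and 0 of 6 choroid plexus and ciliated, 0 of 3 oligodendrocyte and 0 of 2 erythrocyte markers were, with medians of -1.58, -1.05 and -0.90. Vascular markers (3 of 3 detected) summed to 26085 to 28850 CPM in RIPC+LAD and 19666 to 31676 CPM in LAD, and immune ones (4 of 6 detected) to 12167 to 15626 CPM and 17540 to 19551 CPM. The immune sums of RIPC+LAD and LAD thus did not overlap, while those of AMC (15273 to 20462 CPM) and RIPC (15356 to 17371 CPM) overlapped RIPC+LAD. Taken singly, 49 of 253 detected microRNAs were lower in every RIPC+LAD sample than in every LAD sample. Between these groups 1 of 4 detected immune markers was higher, with a median of -0.28, and 2 of 3 vascular markers were, with a median of 0.04. No marker on the panel was at the lowest count throughout a group. The part of these cells in the levels of the members was not tested.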

How the data were processed

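The deposited counts are whole barcode counts per probe, not normalized, from the NanoString rat microRNA assay, with a lowest value of 1. No counting software is named in the sources used here. Log2 values, deposited too, cover 146 microRNAs and 4 mRNAs. For the members these equal log2 of the count at a microRNA total of 100000, within 4.98e-10.

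The detection limit, mean plus 2 SD over 8 negative controls, had to be passed in 2 samples or more, and 253 microRNAs did so. Counts scaled with TMM factors (trimmed mean of M values) were tested with the quasi-likelihood test of edgeR 4.0.16 (R 4.3.3) with all 10 samples in 1 fit, two-sided, with Benjamini-Hochberg adjustment over 253 at a threshold of 0.05. A prior count of 2 went into log2 CPM. Each SE was taken from the fold change and its F statistic (absolute value over root F). Replicate numbers follow accession order and pair nothing. Libraries of a group differed by a chi-square of at least 7.65 per degree of freedom, more than counting noise, and each was counted as 1 sample. The labels number the animals separately, so p-values measure the spread between animals.

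Members and lists were chosen with earlier results of these data known. Named microRNAs were the members, miR-425, listed references, seed sharers and the 5 most alike by Pearson r. Alternatives were DESeq2 1.42.0, limma-voom and limma 3.58.1 on the deposited log2 table, scaling to the top 100 microRNAs, no detection filter, no TMM factor, negative control mean subtracted, only the groups compared, spike-in set or ligation control as covariate, fits within a spike-in set, the animal number prefix as a random block, and samples left out.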

Additional observations from a re-analysis of the deposited data

Results flagged for a closer look

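On means, the difference between ligated and unligated animals ran in opposite directions without and with preconditioning for all 3 members. For miR-185 and miR-361 every ligated sample lay on that side of the mean of its unligated group, though not of each control. LAD 2 had more miR-185 (1286 CPM) than AMC 1 (1267 CPM) and AMC 2 (1087 CPM), and LAD 1 more miR-361 (302 CPM) than AMC 1 (288 CPM). How many detected microRNAs had this pattern was not counted. Taken singly, 132 of 253 were lower in LAD than in AMC and 133 of 253 higher in RIPC+LAD than in RIPC. All 3 LAD samples had a miR-185 level below the AMC mean, by -0.36 on average on the log2 CPM scale, while both RIPC+LAD samples were above the RIPC mean, by 1.08. For miR-361 the average differences were -0.42 and 0.53. For miR-191, LAD 3 was above the AMC mean. No member passed the edgeR test in LAD vs AMC. These differences between effects were not tested, since the RIPC+LAD and LAD values chose the members. That choice favours low LAD and high RIPC+LAD values, so the opposite directions were partly set in advance.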

How the results depend on the processing

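Between RIPC+LAD and LAD each member kept its direction under all 23 alternatives, from 0.14 to 1.41 for miR-185, 0.47 to 1.15 for miR-191 and 0.71 to 1.10 for miR-361. The lowest values of miR-185 and miR-191 came with the ligation control as a covariate, and that of miR-361 without LAD 2 and LAD 3. Between LAD and AMC all kept their direction, from -0.78 to -0.03 for miR-185, -0.44 to -0.02 for miR-191 and -0.58 to -0.16 for miR-361, with adjusted p-values of 0.699 or above. The values nearest 0 of miR-185 and miR-191 came with the ligation control and the lowest with the spike-in set as covariate, and the count of calls was 0 except in the high spike-in samples, with LAD 1 as the only LAD sample, where 4 microRNAs, none a member, passed. Between RIPC and AMC the sign of the members turned. MiR-361 was at 0.025 with DESeq2, 0.090 with limma on the deposited log2 values, 0.0097 with limma-voom, 0.094 with no detection filter, 0.054 with no TMM factor, 0.0089 with only the groups compared and 0.056 with top 100 scaling, and ran from -0.31 to 0.25 when 1 sample was left out. MiR-191 was at 0.0031 with no detection filter and ran from -0.47 to 0.19 with 1 sample left out, and miR-185 from -0.71 to 0.18. Scaling to the top 100 set the median over all microRNAs at 0.13 in LAD vs AMC and -0.17 in RIPC+LAD vs LAD, and no TMM factor set it between -0.11 and -0.12 in the comparisons of RIPC+LAD. No paired analysis was possible because the replicate numbers follow accession order. Depth limits miR-361 most, with 6 counts in LAD 3.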
